A study of Mus musculus with 2 samples.

Results

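The genes described here make, break down and anchor cyclic AMP signalling in mouse macrophages and osteoclasts. They are the adenylyl cyclases (Adcy), the phosphodiesterases (Pde), the subunits of protein kinase A (PKA) and the A-kinase anchoring proteins (AKAPs). They were chosen by symbol, with earlier results of these data known: Adcy, Akap or Pde followed by a digit, Prkaca, Prkacb, and symbols starting with Prkar. This gave 57 genes of the 18193 that had an array probe set assigned to 1 gene symbol. Where a gene had several probe sets, the one brightest on average (mean of the log2 signals of both arrays) stood for it. Adcyap1 and Adcyap1r1, a peptide hormone and its receptor, share the first letters but have no digit after them and were not counted as members.

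The study used 2 Affymetrix arrays, 1 of bone marrow derived macrophages and 1 of bone marrow derived osteoclasts, both from the strain given as C57/Black6. Marrow of 8-week-old mice was first kept for 3 days in M-CSF, the growth factor of the macrophage lineage, and its adherent progenitors were collected. The macrophage group then received M-CSF alone and the osteoclast group both M-CSF and RANKL, the factor that induces osteoclasts, for 6 days. Both groups thus had M-CSF throughout, no genotype other than the strain is named, and the labels do not say whether animals were pooled or shared between the groups.

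Cyclic AMP is made from ATP by adenylyl cyclases when receptors coupled to the stimulatory G protein are engaged. It binds the regulatory subunits of PKA, which frees the catalytic subunits to phosphorylate their targets. Phosphodiesterases end the signal by hydrolysing the cyclic nucleotide, and AKAPs hold PKA, often together with a phosphodiesterase or a cyclase, at a given place in the cell. In macrophages cyclic AMP is known for damping inflammatory cytokine release, and in osteoclasts it is one of the signals through which calcitonin halts resorption.

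Each group is 1 array without a replicate, so no test was possible. Signals are the deposited linear intensities. The osteoclast array was dimmer overall: the 23708 probe sets above the floor in both arrays had a median log2 difference, osteoclast minus macrophage, of -0.43. Every difference below is a log2 difference relative to that shift, and folds are on the same scale, unless called deposited. A signal counted as measured from a floor upwards, set at the 40th percentile of each array, 17.0 in macrophages and 14.4 in osteoclasts. Differences take a signal under the floor at the floor. Folds written "at least" take a dim signal at a more cautious level, the 95th percentile of the 80 probe sets for odorant and pheromone receptors (genes named Olfr or Vmn), 28.2 in macrophages and 25.7 in osteoclasts. The only spread in the data is that between probe sets of a gene measured in both arrays. Over 14641 probe sets of all genes this spread had an SD of 0.49 (log2), and over 68 probe sets of 22 members 0.60, and it holds no variation between cultures or animals.

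Marker genes lay on the sides the labels give. All 10 osteoclast markers, such as Ctsk and Acp5, were at least 2-fold higher in the osteoclast array, and 5 of 9 macrophage markers were at least 2-fold lower there. Of 8 granulocyte markers, 7 were at least 2-fold higher in the osteoclast array, with a summed signal of 3227 in macrophages and 6057 in osteoclasts and none at 0. Stromal and osteoblast markers summed to 8964 and 5747, a sum carried by Col1a2 and Col1a1, which were far above the floor in both arrays. By gene, 2 of 6 measured members of that list, Col3a1 (1.14) and Dcn (1.55), were at least 2-fold higher in osteoclasts and none was 2-fold lower, with a median of 0.24. All 3 T lymphocyte markers were under the floor in both arrays. Of 2 measured B lymphocyte markers, Cd79b gave 64.7 against 16.4 (-1.55, at least 1.86-fold lower) and Pax5 38.3 in macrophages only. All 4 megakaryocyte markers on the array were measured, such as Ppbp (104 against 106), and none was 2-fold apart. Of 2 measured endothelial markers, Cdh5 was higher in osteoclasts (1.09, at least 1.29-fold) and Kdr was near the shift (0.18). Xist, an RNA of female cells, gave 1872 in macrophages and 22.1 in osteoclasts, while the Y-linked genes Uty, Kdm5d and Eif2s3y were measured only in osteoclasts, so the arrays also differ in sex-linked transcripts. These differences move with every result below, and their part in it was not tested. In bulk RNA, fewer cells of a type and less RNA per cell cannot be told apart.

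Of the 57 members, 45 were measured in at least 1 array: 38 in both, 4 in macrophages only and 3 in osteoclasts only. Both directions were represented equally among the large differences. In osteoclasts 8 members were at least 2-fold higher, 17.8% of those measured, against 7.11% of the 13647 genes measured in at least 1 array. Another 8 members, also 17.8%, were at least 2-fold lower, against 6.99% of all measured genes. Among the 38 members measured in both arrays, 6 were higher and 8 lower, against 6.25% and 7.03% of 11469 genes. The median over the measured members was -0.05 and that over all measured genes 0.00, so the members had no common direction, and neither count was tested. At least 4-fold differences were found in 1 member each way, Akap6 (higher, where the background share was 1.34%) and Pde3b (lower, 0.923%).

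The deposited values, without allowance for the dimmer osteoclast array, divide differently. On that scale 2 members, Akap6 and Adcy5, were at least 2-fold higher (3.0% of all measured genes were) and 14 at least 2-fold lower (17.5%). The higher share of the 2-fold members was thus 8 of 16 (50%) relative to the shift and 2 of 16 (12.5%) as deposited. Of all genes at least 2-fold apart, 50.4% and 14.6% were higher on these scales, so the members split much as all genes did. All 8 higher members stayed above 0 as deposited, and all 8 lower members passed 2-fold as deposited too.

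**Figure D1:**
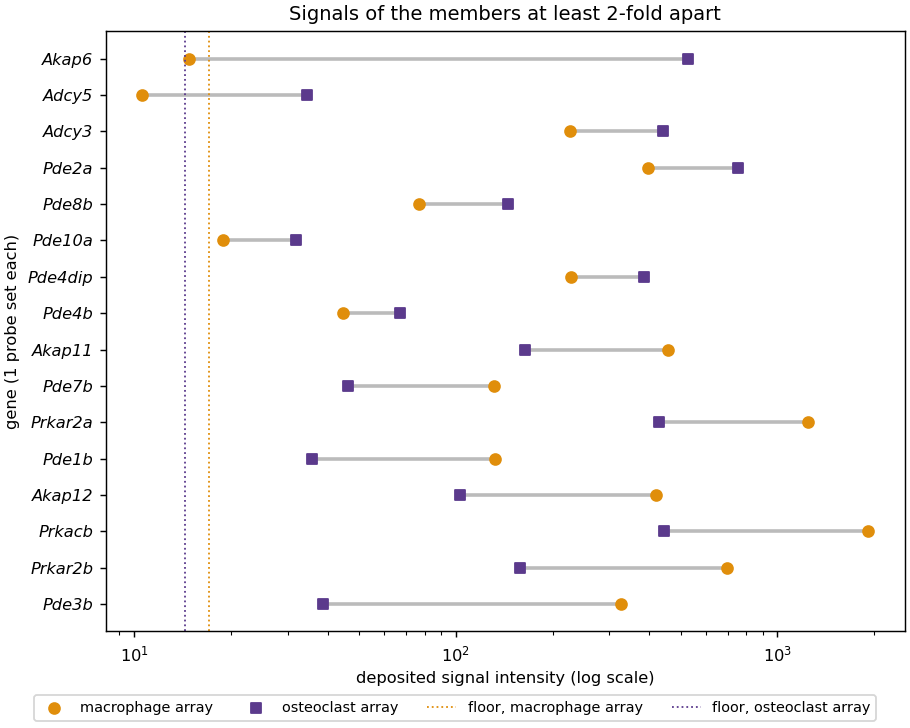
Deposited signal intensity (log scale) of the 16 members at least 2-fold apart relative to the array shift, 1 probe set per gene, in the macrophage array (circles) and the osteoclast array (squares), with dotted lines at the floors of 17.0 and 14.4. Akap6 goes from under the macrophage floor to 526, and Pde3b from 326 to 38.8.

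Promoter letters are shown for 5 members, because cyclic AMP feeds back on genes through CREB, a factor known to bind the cyclic AMP response element TGACGTCA and its short form TGACG. Akap6 and Pde4b were higher in osteoclasts, Prkacb and Akap11 lower, and Prkar1a holds the only full element. The sequences come from RefSeq windows on GRCm38.p6 that run from 250 bases before to 50 after an annotated start, of which 46 of the 57 members had at least 1. Each is 120 bases, 5′ to 3′ along the gene, ending at the base before the start (21 bases before it for Akap11). Capitals mark the short form on either strand, and in Prkar1a a short form on each strand overlaps to make the full element. Where a gene had several windows, the stretch comes from the one with the most full elements, then the most short forms, before its start.
Akap6: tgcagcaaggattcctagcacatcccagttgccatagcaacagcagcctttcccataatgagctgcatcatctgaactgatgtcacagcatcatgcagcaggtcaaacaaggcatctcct
Prkar1a: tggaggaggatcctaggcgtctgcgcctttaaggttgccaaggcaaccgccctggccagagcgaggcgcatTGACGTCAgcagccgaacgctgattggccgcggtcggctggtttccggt
Prkacb: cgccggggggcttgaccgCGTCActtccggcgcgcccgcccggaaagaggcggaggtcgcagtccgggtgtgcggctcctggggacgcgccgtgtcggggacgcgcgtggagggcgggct
Akap11: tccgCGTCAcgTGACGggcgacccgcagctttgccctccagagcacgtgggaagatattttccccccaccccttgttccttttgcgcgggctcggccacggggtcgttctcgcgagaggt
Pde4b: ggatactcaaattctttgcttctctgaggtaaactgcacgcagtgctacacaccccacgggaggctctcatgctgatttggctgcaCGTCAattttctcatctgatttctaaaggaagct
These stretches lie at chr12:52699263-52699382 (plus strand), chr11:109650829-109650948 (plus), chr3:146812947-146813066 (minus), chr14:78536881-78537000 (minus) and chr4:102421435-102421554 (plus). The first capital lies 49 bases before the start in Prkar1a, 102 in Prkacb, 136 in Akap11 and 34 in Pde4b, and the Akap6 stretch holds none. Over both strands, 18 of the 89 member windows (20.2%) held the short form, against 20.8% of all 32851 windows. The full element was in 2 member windows (2.25%), both of Prkar1a and overlapping each other, against 1.79% of all windows. Counted by gene, 16 of 46 members (34.8%) had the short form in at least 1 window, against 23.0% of all genes. For the members at least 2-fold apart, 6 of 34 windows (17.6%) and 6 of 14 genes (42.9%) held it. Some genes have several windows, and neither share was tested. A match of letters is a description and shows no binding.

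Adenylyl cyclases, the enzymes that make cyclic AMP, differed by isoform. Of 10 genes, 7 were measured, 2 of them at least 2-fold higher in osteoclasts and none 2-fold lower, with a median of -0.03. As deposited the balance turns, with 1 higher (Adcy5) and 2 lower (Adcy6 and Adcy7). Adcy3, a membrane cyclase best known from olfactory neurons, had 227 in macrophages and 441 in osteoclasts, a 2.62-fold difference (1.39). All 4 Adcy3 probe sets lay above the shift, between 0.32 and 1.86, so the size of the difference depends on the probe set while its side does not. Adcy5 gave 10.6, under the floor, against 34.5 (at least 1.65-fold higher). Its difference of 1.45 at the floor counts as 2-fold, but the other measured Adcy5 probe sets gave -0.36 and 0.43, and the osteoclast signal is close to the receptor level of 25.7.

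Adcy7, a cyclase prominent in blood cells, was the brightest probe set of the group. It gave 2355 in macrophages and 1089 in osteoclasts (-0.68), and the other 2 probe sets gave -0.96 and -0.56. All Adcy7 probe sets thus lay below the shift by less than 2-fold, on the side opposite to Adcy3. Adcy6 also lay lower, with 81.6 against 34.4 (-0.81). Adcy9 (161 against 108, -0.14) and Adcy2 (74.7 against 57.4, 0.05) stayed near the shift. Adcy1 was barely above the floor in macrophages (19.8) and under it in osteoclasts, and Adcy4, Adcy8 and the soluble cyclase gene Adcy10 were under the floor in both arrays.

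**Figure D2:**
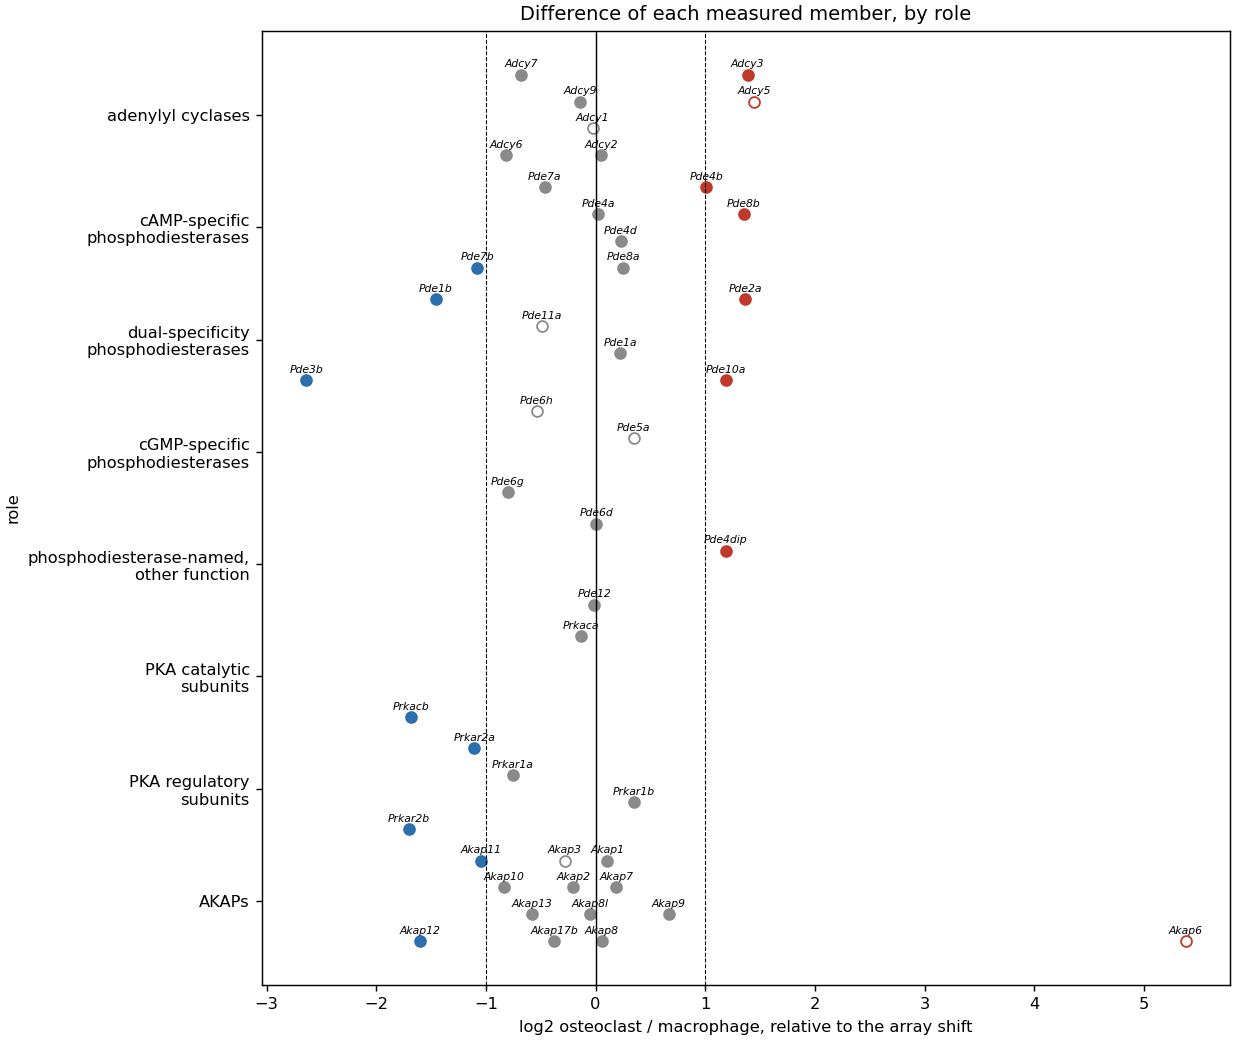
Log2 osteoclast over macrophage, relative to the array shift, for the 45 measured members by role, 1 probe set per gene. Red and blue points are at least 2-fold higher and lower, open points were measured in 1 array only, and the dashed lines mark 2-fold; 3 of 6 PKA subunits are blue and none is red.

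Phosphodiesterases that hydrolyse cyclic nucleotides made up 22 members, 16 of them measured, with 4 at least 2-fold higher, 3 at least 2-fold lower and a median of 0.13. As deposited, none was 2-fold higher and 4 were 2-fold lower. The lowest value of any member was in this group. Pde3b, a phosphodiesterase inhibited by cyclic GMP and known for carrying the insulin signal in fat cells, gave 326 in macrophages and 38.8 in osteoclasts. This is a 6.22-fold lower signal (-2.64), and 0.249% of all measured genes lay lower. Pde3b has 1 probe set with a symbol of its own, so no other probe set checks this value. Its relative Pde3a was under the floor in both arrays on its brightest probe set.

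The remaining dual-specificity enzymes, which accept both cyclic AMP and cyclic GMP, went both ways. Pde1b, a calmodulin-activated enzyme, gave 132 in macrophages and 35.6 in osteoclasts (-1.46, 2.75-fold lower), again on 1 probe set. Pde2a, which cyclic GMP activates, gave 395 and 755 (1.37, 2.58-fold higher). A further Pde2a probe set gave 134 and 286 (1.52), but the third gave 210 and 131 (-0.25), so the probe sets disagree on the side. Pde10a was dim in both arrays, with 18.9 against 32.0 (1.19). With the macrophage signal raised to the receptor level, it was at least 1.53-fold higher, under 2-fold. Pde1a (20.3 against 17.6) was near the floor, Pde11a (27.3 in macrophages) was measured there only, and Pde1c was under the floor in both arrays.

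The cyclic AMP specific enzymes were all measured, 7 of 7, with 2 at least 2-fold higher, 1 at least 2-fold lower and a median of 0.23. Pde4b, the isoform known for limiting cyclic AMP in inflammatory myeloid cells, gave 44.8 in macrophages and 66.9 in osteoclasts (1.01, 2.02-fold higher). Although that value only just reaches 2-fold, all 4 measured probe sets of Pde4b lay above the shift, from 0.71 to 1.89. Pde8b, a high-affinity enzyme, gave 77.0 and 145 (1.35), with its other probe set at 0.31. Pde7b was lower, with 131 against 46.1 (-1.08), although its other measured probe set, near the floor, gave 0.24. The paired isoforms of both families lay closer to the shift: Pde8a, the brightest of this class, gave 523 and 461 (0.25) and Pde7a 150 and 80.5 (-0.46). All 7 Pde7a probe sets were measured in both arrays and ran from -0.86 to 0.22. Pde4a (0.03) and Pde4d (0.23) did not stand apart, and Pde4c had no probe set among the members.

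Of the 7 genes for cyclic GMP specific enzymes and their inhibitory subunits, 3 were measured and none reached 2-fold. The retinal subunit gene Pde6g had the brightest probe set, with 37.5 against 15.98 (-0.80, at least 1.08-fold lower). Pde6h was measured in macrophages only (28.1) and Pde5a in osteoclasts only (16.1), each close to the floor. Pde6a, Pde6b, Pde6c and Pde9a were under the floor in both arrays.

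The symbol rule also takes in 3 genes whose products are not known to break down cyclic nucleotides. Pde4dip encodes myomegalin, a scaffold of the Golgi apparatus and centrosome that binds a phosphodiesterase. It was higher in osteoclasts on all 4 probe sets. Its brightest probe set gave 228 against 385 (1.19), and the others gave 35.4 against 77.4 (1.56), 22.3 against 103 (2.63) and 22.7 against 296 (4.14). The difference thus spans a wide range by probe set, and the largest ones rest on macrophage signals in the range of background. Pde12, a mitochondrial enzyme that trims RNA tails (438 against 322, -0.01), and Pde6d, which carries lipid-modified proteins (275 against 204, 0.01), lay at the shift.

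The subunits of PKA were lower in osteoclasts more often than higher. All 6 were measured in both arrays, 3 were at least 2-fold lower and none 2-fold higher, with a median of -0.93 (-1.36 as deposited). With 6 members, the 95% binomial interval of that median spans all of them, from -1.70 to 0.35. Of the catalytic subunits, Prkacb gave 1918 in macrophages and 443 in osteoclasts (-1.68, 3.21-fold lower). The other measured Prkacb probe set gave 298 and 86.9 (-1.34), so both passed 2-fold. Prkaca, the other catalytic subunit, stayed near the shift, with 672 against 454 (-0.13) and 0.08 on its other probe set. The catalytic genes thus differed in these arrays by isoform.

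The regulatory subunits, which hold the catalytic subunits inactive until cyclic AMP binds, also differed by gene. Prkar2b, of type II, gave 697 in macrophages and 158 in osteoclasts (-1.70, 3.26-fold lower). Its other probe sets gave -0.83 and -0.44, so all 3 lay below the shift and 1 passed 2-fold. Prkar2a, the other type II gene, gave 1244 and 429 (-1.10), and its other 3 measured probe sets ran from -0.71 to -0.18. Type II subunits are the form that most AKAPs bind. Both of their genes, and the type I gene Prkar1a, lay below the shift on every measured probe set. Prkar1a, the brightest of the group, gave 3067 and 1348 (-0.75, and -1.19 as deposited), with other probe sets at -0.03 and -0.08. Prkar1b was dim, at 52.5 and 49.5 (0.35), and its 5 measured probe sets ran from -0.75 to 0.45, on both sides of the shift. The difference between type I and type II was not tested.

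**Figure D3:**
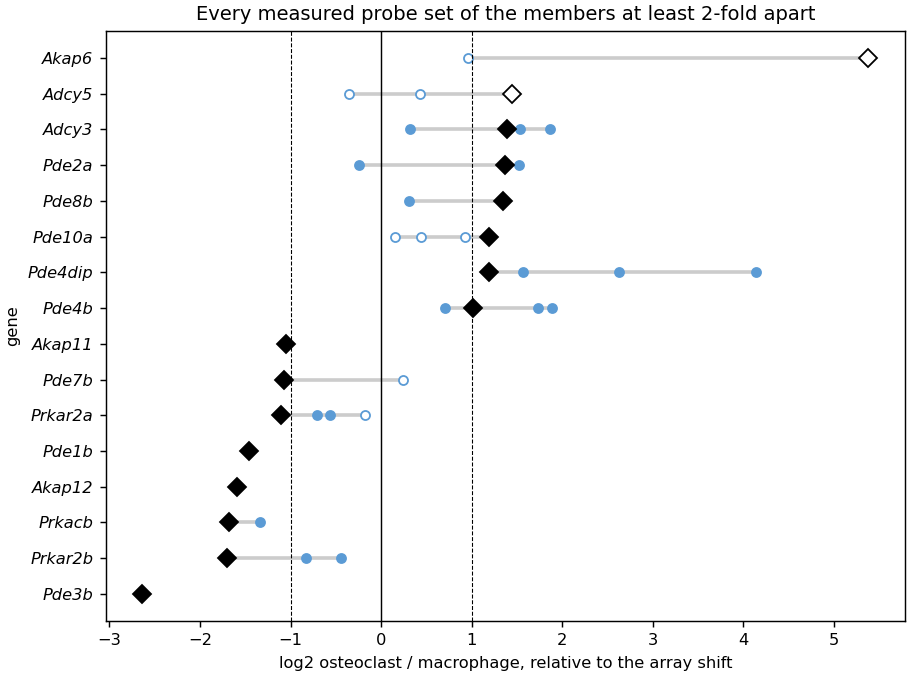
Log2 osteoclast over macrophage, relative to the array shift, for every measured probe set of the 16 members at least 2-fold apart. Diamonds are the probe sets used for the gene, circles the others, open symbols were measured in 1 array only, and the dashed lines mark 2-fold; Adcy5, Pde2a and Pde7b have probe sets on both sides of 0.

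AKAPs held the highest value of all members and otherwise lay mostly near or below the shift. Of 16 genes, 13 were measured, 1 was at least 2-fold higher, 2 were at least 2-fold lower and the median was -0.20. Without centring, 4 AKAPs were at least 2-fold lower. Akap6 encodes mAKAP, an anchor of the nuclear envelope best known from heart muscle and neurons, where it assembles PKA with a phosphodiesterase and calcineurin. Akap6 gave 14.8 in macrophages, under the floor, and 526 in osteoclasts, at least 25.2-fold higher (5.38 with the macrophage signal at the floor). The other Akap6 probe set was also measured in osteoclasts only, with 5.75 against 24.5 (0.96). Its osteoclast signal is under the receptor level of 25.7, so the large Akap6 difference rests on 1 probe set. Of all measured genes, 99.9% had a smaller value than Akap6.

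The 2 lower AKAPs were Akap12 and Akap11, each with 1 probe set. Akap12, also called SSeCKS or gravin, a membrane scaffold of PKA and protein kinase C, gave 421 in macrophages and 103 in osteoclasts (-1.60, 3.02-fold lower). Akap11, or AKAP220, an anchor that also binds protein phosphatase 1 and the kinase GSK3, gave 457 and 164 (-1.05, 2.07-fold lower). Akap10, a dual-specificity anchor, gave 449 and 187 (-0.83), but its other measured probe sets reached 0.53. Akap13, which had the brightest probe set of the group, gave 765 and 380 (-0.58), with its other measured probe sets between 0.25 and 1.28. The only one of those measured in both arrays gave 47.6 against 41.9 (0.25). The rest were measured in osteoclasts only, at dim signals from 16.9 to 30.6. For both genes the probe sets therefore do not settle a side.

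Akap9, an anchor of the centrosome and Golgi apparatus, lay above the shift with 162 against 191 (0.67), and its 6 measured probe sets ran from -0.77 to 1.57. The mitochondrial anchor Akap1 (188 against 150, 0.11), the nuclear anchor Akap8 (406 against 312, 0.06) and its relative Akap8l (-0.05) stayed near the shift. So did Akap7 (0.19) and Akap2 (-0.20), while the X-linked Akap17b lay lower by less than 2-fold (90.0 against 51.4, -0.38). These values are of the brightest probe sets, and another gave -0.21 for Akap1, -0.47 for Akap8 (475 against 254) and -0.48 for Akap2. Akap3, a sperm protein gene, was measured in macrophages only (23.6). Akap5 and the X-linked genes Akap4 and Akap14 were under the floor in both arrays.

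The probe sets give the nearest thing to a check of the 16 members that were at least 2-fold apart. Of these, 12 had more than 1 measured probe set, and in 9 of the 12 all measured probe sets lay on the same side of the shift: Adcy3, Akap6, Pde10a, Pde4b, Pde4dip and Pde8b above it, and Prkacb, Prkar2a and Prkar2b below it. Among them, 1 Pde10a probe set was measured in macrophages only (17.5 against 3.96) and lay above the shift only because the osteoclast signal was raised to the floor. The dimmer Akap6 probe set was under the receptor level in both arrays. Adcy5, Pde2a and Pde7b had probe sets on both sides. The other 4, Pde3b, Pde1b, Akap12 and Akap11, rest on 1 probe set each. For Adcy5 and Pde10a, the difference fell under 2-fold at the receptor level.

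Receptors upstream of the cyclases were read from a list of 31 genes for receptors coupled to the stimulatory G protein, of which 14 were measured. Of these, 4 were at least 2-fold lower and 1 was at least 2-fold higher in osteoclasts, with a median of -0.33. The prostaglandin E2 receptor genes Ptger4 (525 against 107, -1.87) and Ptger2 (286 against 59.7, -1.83) were both lower, as was the proton sensor Gpr65 (788 against 59.7, -3.29). Calcrl, the receptor for the calcitonin gene-related peptide and adrenomedullin and the brightest of the list, gave 955 against 296 (-1.26). The 1 higher gene was Calcr, the calcitonin receptor, with 18.3 against 241 (at least 11.6-fold higher). The prostaglandin and proton receptors were thus brighter in macrophages and the calcitonin receptor in osteoclasts. Between receptor and cyclase stand the G proteins. The G protein list also holds Ric8a and Ric8b, which are not G protein subunits. On the brightest probe set, none of its 11 measured genes reached 2-fold in either direction, with a median of 0.12. Gnas, which encodes the stimulatory alpha chain, gave 3900 and 3291 (0.19). Other probe sets measured in both arrays reached 1.07 for Gnas, 1.10 for Gnb4, -1.10 for Gnai3 and -1.13 for Ric8a.

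In the inhibitor, exporter and anchor lists, the only genes at least 2-fold apart were Pkib, Abcc4, Rab32 and Map2, all lower in osteoclasts. The list of other effectors had none, and genes known to respond to CREB, given below, went both ways. Over all measured genes 6.99% were at least 2-fold lower and 7.11% higher, and these small lists were not tested. Pkib, which encodes an inhibitor peptide of the catalytic subunit, was the 1 lower gene of 3 measured in its list, with 352 against 74.6 (-1.81) and -1.66 on its other probe set. Pkig, the brightest of that list, was near the shift (600 against 429, -0.05). Abcc4, a pump that exports cyclic AMP, was lower (478 against 160, -1.15), and Abcc5 was not (282 against 267, 0.35). Of the other cyclic AMP effectors, none of 5 measured genes reached 2-fold, and the Rap GTPase gene Rap1b gave 7159 against 4207 (-0.33). Among 8 measured PKA anchors under other names, Rab32, a mitochondrial GTPase, was lower (2846 against 655, -1.69), and Map2, measured in macrophages only, was at least 1.41-fold lower.

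**Figure D4:**
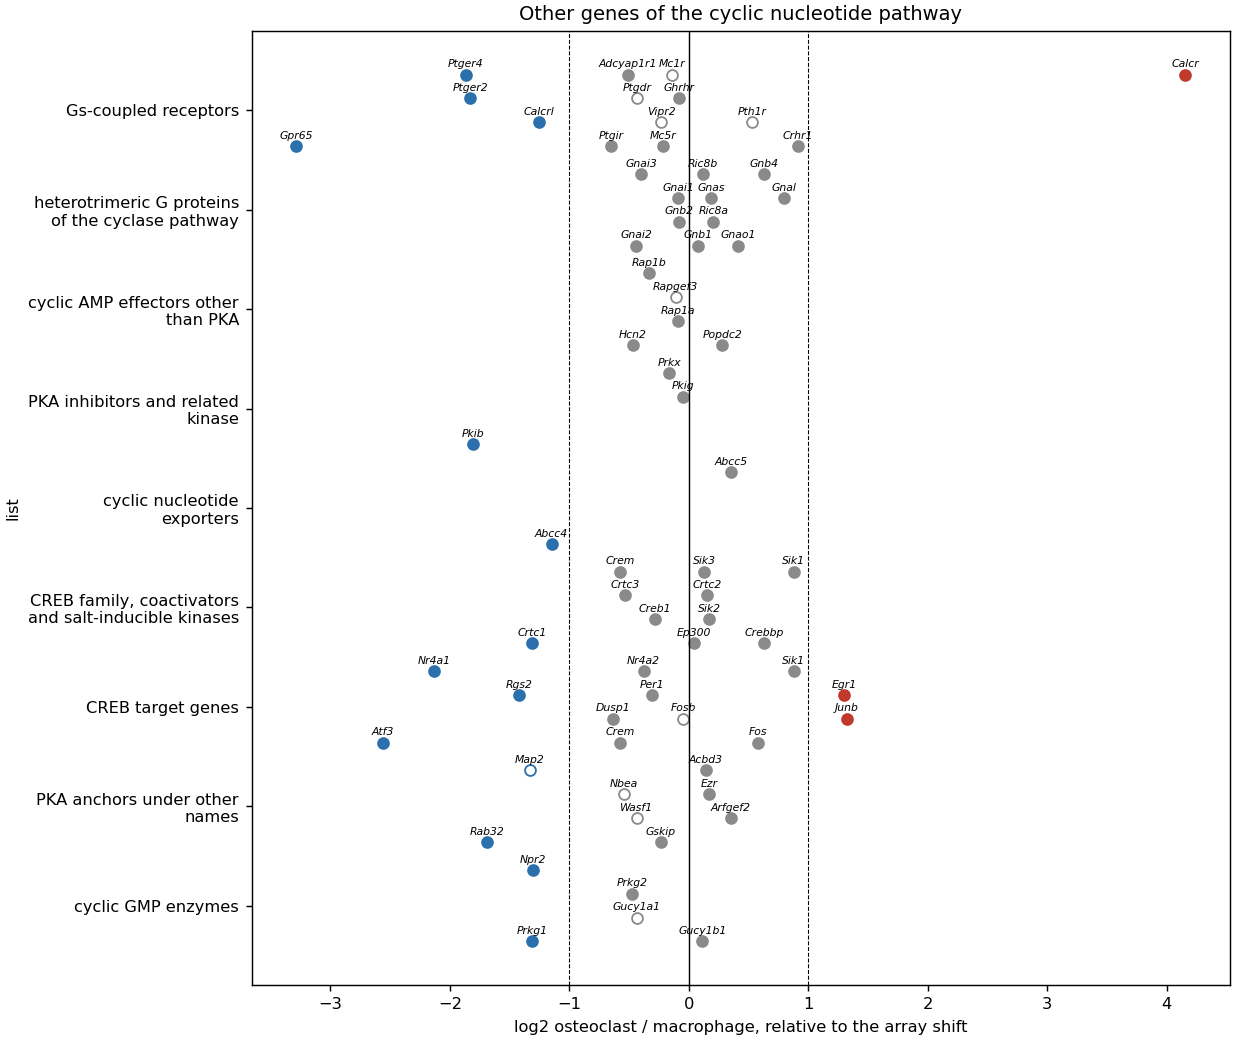
Log2 osteoclast over macrophage, relative to the array shift, for measured genes of 9 lists around the pathway, with colours, open points and dashed lines as for the members (red and blue at least 2-fold higher and lower, open points measured in 1 array only). Gpr65 at -3.29 and Calcr at 4.16 mark the ends, and all genes of the G protein list lie inside the dashed lines on their brightest probe sets.

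CREB, the nuclear target of PKA, and its partners lay close to the shift. Of 10 measured genes, 1 was at least 2-fold lower and none higher, with a median of 0.08, and Creb1 itself gave 601 against 365 (-0.29). The coactivator gene Crtc1 was the lower one (80.6 against 24.0, -1.31), although its probe sets reached 0.02. Genes known to respond to CREB went both ways: of 12 measured, 3 were at least 2-fold lower and 2 at least 2-fold higher, against 5 lower and 0 higher as deposited. Atf3 (1374 against 173, -2.56), the nuclear receptor gene Nr4a1 (145 against 24.4, -2.13) and Rgs2 (1535 against 426, -1.42) were lower, Junb (290 against 538, 1.33) and Egr1 (164 against 299, 1.30) higher. These genes also answer to other signals, and Fos, the brightest, gave 3406 against 3769 (0.58). Of 5 measured genes of cyclic GMP signalling, Npr2 (at least 1.80-fold) and Prkg1 (at least 1.54-fold) were lower, both under 2-fold at the receptor level, and Prkg2, the brightest, gave 127 against 67.8 (-0.48).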

How the data were processed

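RNA of 1 macrophage and 1 osteoclast culture was hybridised to Affymetrix arrays after one-cycle biotin labelling of 1 µg total RNA, per the labels' protocols. The deposited table holds 1 linear intensity per probe set and array, 45101 in all. How probes were summarised, background-corrected and scaled is not stated in the labels or the table, and no detection calls were used. No depth applies to arrays, and the number of arrays limits the precision.

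After removal of 64 control probe sets, 34945 carried 1 gene symbol in the platform annotation, which can be old. Entrez identifiers of 56 of the 57 members matched the RefSeq table of GRCm38.p6; Akap2 kept the platform's name. Floor, shift and bounds are as described in the results, computed with Python 3.11.15, numpy 2.4.6 and pandas 2.3.3. Shift and differences were checked on a simulated osteoclast array with known log2 changes of 2 in genes well above the floor. That check covers the arithmetic, and not genes near the floor or disagreement between probe sets. Genes named are members at least 2-fold apart, PKA subunits, the brightest of each list, and genes whose probe sets lay on both sides of the shift by 1 or more in all; the rest were added for a full account. The members and lists were chosen with earlier results of these data known. A planned search of protein sequences was not run, as no protein table was used here.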

Additional observations from a re-analysis of the deposited data

How the results depend on the processing

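In all, 12 alternatives to the processing were tried: other scalings, other floors or none, a pseudocount of 16, other choices of probe set and a wider symbol rule. The medians of all members and of the 4 families stayed inside the binomial interval of the reported median under each of them. That interval is wide and taken over genes, so staying inside it is no sign of stability. For all members it ran from -0.491 to 0.106, and the deposited median of -0.486 was barely inside. Counts of members at least 2-fold apart, 8 higher and 8 lower as reported, moved by over 1.5 times under 4 of the alternatives. Deposited values without centring gave 2 higher and 14 lower, which follows from the shift of -0.43. Without a floor, every member counted, 15 were lower. The mean over all probe sets of a gene gave 4 higher, and the next brightest probe set gave 3 higher and 5 lower. Adcy5 turned to -0.36 on probe sets without an s, x or a ending and on its next brightest probe set, and Pde7b to 0.24 on the latter. Of the 16 members, 4 stayed at least 2-fold apart on the same side under every alternative that gave a value, namely Akap12, Pde1b, Pde3b and Prkacb. Of 224 recomputed values of single members, 24 moved by more than the probe set SD of 0.49, besides the 3 turned values given above. Those 24 include changes of side in Prkar1b, which was not 2-fold apart. It went from 0.35 to -0.25 on its next brightest probe set and to -0.70 on probe sets without an s, x or a ending. Counts in the pathway lists moved by over 1.5 times in 33 of 216. Akap12, Pde1b and Pde3b have only 1 probe set, so the alternatives on probe sets could not change them. No array could be left out, and no paired analysis was possible because each group has 1 array and the labels give no replicate numbers.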
